A study of Mus musculus with 44 samples.

Results

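The genes described here are 6 cell cycle inhibitors, Cdkn2a, Cdkn2b, Cdkn2c, Cdkn2d, Cdkn1b and Cdkn3, out of 32287 genes listed in every library. They were taken by gene name, with TPM, an abundance scaled by transcript length and library size, summed over the rows of each gene identifier. They were chosen by results that included their TPM in these groups, so the levels and differences of the 6 genes are given as a description, without a test. In mm10, Cdkn2a (ENSMUSG00000044303) lies at chr4:89274471-89294653 and Cdkn2b (ENSMUSG00000073802) at chr4:89306299-89311039, both on the minus strand, with 11.6 kb between them. Cdkn2c (ENSMUSG00000028551) lies at chr4:109660876-109667189, Cdkn2d (ENSMUSG00000096472) at chr9:21288410-21291407, Cdkn1b (ENSMUSG00000003031) at chr6:134920401-134925513 and Cdkn3 (ENSMUSG00000037628) at chr14:46760541-46771669. None of the 6 overlaps another listed gene.

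The study traced mouse embryonic and extraembryonic cells into the gut by aggregating a morula that carries mCherry (CD1/G4) with embryonic stem cells (ESCs) that carry GFP (G4), so that the ESCs form the embryo and the morula forms the extraembryonic tissues. Low-input RNA libraries, 44 in 12 groups, were made at E6.5, E9.5 and E13.5, stages that take account of a 24-hour delay from uterine transfer. At E6.5 single embryos gave Epi (epiblast, GFP), exEndo 1 (distal extraembryonic endoderm, mCherry) and exEndo 2 (proximal), 4 libraries each, isolated by hand. At E9.5 pools of 4 embryos gave EPCAM-sorted hindgut and midgut cells of embryonic origin (emHindgut and emMidgut, from the gate labelled GFP mCherry dual low) and of extraembryonic origin (exHindgut and exMidgut, mCherry), and yolk sac endoderm (YsEndo, mCherry), 4 libraries each. At E13.5 single embryos gave EPCAM-sorted colon and small intestine cells of embryonic origin (emColon and emSI, GFP, wild type) and of extraembryonic origin (exColon and exSI, mCherry, Trp53 KO), 3 libraries each.

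Some limits are fixed by this design. All embryonic cells descend from 1 GFP-labelled ESC line and all extraembryonic cells from host morulae, so lineage origin, strain and culture history cannot be told apart, nor can sex, since by the methods the ESC-derived cells are male and the others male or female. At E13.5 the deletion was made only in the extraembryonic lineage, by electroporating zygotes with Cas9 and guides, so the stage and the loss of p53 cannot be told apart in extraembryonic cells, nor origin and Trp53 genotype between the E13.5 groups. By the paper, the dual cells taken as embryonic at E9.5 hold remnants of dying extraembryonic cells and can carry some of their transcripts. At E13.5 the embryonic cells came from a GFP gate instead, and single embryos replaced pools, so gate and pooling change with stage. Libraries held 3.53 to 12.04 Gb of aligned bases, as implied by the coverage, and 10383 to 13596 genes above 1 TPM. The extraction text of the Epi libraries names another tissue, EmVE, and these were grouped by their titles. The titles held against their markers: Pou5f1 had a median of 1759 TPM in Epi, the 6 yolk sac endoderm markers summed to 47520 to 52960 TPM in YsEndo, and mCherry was 1731 to 8667 TPM in extraembryonic libraries against at most 6.61 TPM in embryonic ones. Trp53, the targeted gene, was 42.5, 124 and 122 TPM in exColon and 33.4, 167 and 117 TPM in exSI. In emColon it was 151, 226 and 245 TPM and in emSI 172, 158 and 201 TPM. The transcript was thus still present in the KO libraries. The emSI and exSI ranges overlapped, while every exColon value was below every emColon value. Over both organs the difference was −1.11 ± 0.34 on the log2 scale (limma adjusted p = 0.193). A level of RNA does not show whether the protein was disrupted.

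The members act at the entry into S phase. INK4 proteins, encoded by Cdkn2a, Cdkn2b, Cdkn2c and Cdkn2d, bind CDK4 and CDK6 and keep them from D-type cyclins, so that RB family proteins stay active and hold E2F factors. Cdkn2a also encodes ARF, which has another reading frame and binds MDM2, the ligase that degrades p53. Cdkn1b encodes p27, a CIP/KIP inhibitor of cyclin-bound CDK2, and Cdkn3 encodes KAP, a phosphatase that acts on CDK2 and is itself made mostly in cycling cells. In many cells the Cdkn2a and Cdkn2b locus is kept silent by Polycomb complexes and becomes expressed under stress or in senescence.

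Cdkn2a had the largest differences between origins among the members in all 4 gut regions, and its RNA can be told apart by first exon. The ARF transcript (ENSMUST00000107131.1) starts in a first exon of 320 bases at chr4:89294334-89294653, and the INK4A transcript (ENSMUST00000060501.4) in one of 207 bases at chr4:89281986-89282192, which is 12141 bases further along the gene. Both continue into the same second exon, and 575 bases are shared. The junctions below show why their reads can be told apart: lower case is the last 45 bases of the first exon (chr4:89294334-89294378 for ARF and chr4:89281986-89282030 for INK4A), capitals are the first 45 bases of the second exon (chr4:89276941-89276985), and the sequences are those of the GENCODE vM21 transcripts on mm10, minus strand.
ARF: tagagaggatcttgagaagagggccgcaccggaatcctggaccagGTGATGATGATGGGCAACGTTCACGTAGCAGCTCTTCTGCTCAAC
INK4A: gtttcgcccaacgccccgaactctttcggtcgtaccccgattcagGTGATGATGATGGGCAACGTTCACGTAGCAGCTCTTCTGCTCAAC
Only 10 of the 45 first-exon bases are the same at the same place, whereas the second exon is read in 2 frames from identical bases.

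The starts that give rise to the 2 transcripts and to Cdkn2b differ in base composition. The 200 bases that begin 250 bases before each RefSeq start are shown, with CpG dinucleotides in capitals, from RefSeq on GRCm38.p6, minus strand, where all 6 members matched an entry. They lie at chr4:89294670-89294869 for ARF, chr4:89282243-89282442 for INK4A and chr4:89311083-89311282 for Cdkn2b.
ARF start: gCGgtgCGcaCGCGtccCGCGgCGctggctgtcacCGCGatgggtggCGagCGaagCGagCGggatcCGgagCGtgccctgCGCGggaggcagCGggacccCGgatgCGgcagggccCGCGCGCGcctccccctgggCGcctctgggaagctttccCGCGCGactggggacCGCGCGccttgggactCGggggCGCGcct
INK4A start: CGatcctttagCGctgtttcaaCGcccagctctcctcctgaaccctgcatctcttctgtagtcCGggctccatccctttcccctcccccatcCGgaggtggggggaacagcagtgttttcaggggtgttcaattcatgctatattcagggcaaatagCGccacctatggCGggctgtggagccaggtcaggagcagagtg
Cdkn2b start: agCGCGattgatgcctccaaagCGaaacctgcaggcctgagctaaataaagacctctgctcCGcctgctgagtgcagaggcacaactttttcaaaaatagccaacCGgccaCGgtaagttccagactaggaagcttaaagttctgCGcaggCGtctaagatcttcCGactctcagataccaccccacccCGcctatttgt
The window before the ARF start holds 34 CpG, a number reached by 0.8% of 32851 such windows, whose median is 4. The INK4A window holds 7 CpG, reached by 38.3% of windows, and the Cdkn2b window 10, reached by 29.3%. Among the other members the counts were 25 for Cdkn1b, 21 and 5 for the 2 starts of Cdkn2c, 14 for Cdkn3 and 13 for Cdkn2d. The letters TTTCCCGC, TTTCGCGC, TTTGCCGC and TTTGGCGC, which E2F factors are known to bind, were searched on both strands in windows from 250 bases before to 50 bases after each start. TTTCCCGC was found once, 99 bases before the ARF start, and no other member window held any of them, against 2.27% of all windows. These are matches of letters and were not tested as binding sites.

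At E9.5 Cdkn2a was high in all extraembryonic gut libraries and low in all embryonic ones. It was 205, 184, 172 and 229 TPM in exHindgut and 2.03, 0.737, 0.188 and 3.22 TPM in emHindgut. In exMidgut it was 406, 381, 463 and 547 TPM, and in emMidgut 17.4, 8.44, 13.8 and 24.7 TPM. The lowest extraembryonic library of either region lay above the highest embryonic one, by 53.3 times in the hindgut and 15.4 times in the midgut. Group means differed 128-fold between exHindgut and emHindgut and 27.9-fold between exMidgut and emMidgut, which is 6.44 ± 0.42 and 4.80 ± 0.32 (SE) on the log2(TPM + 1) scale. Cdkn2a also differed between regions within each origin. It was 2.28-fold higher in exMidgut than in exHindgut and 10.4-fold higher in emMidgut than in emHindgut, again without overlap. Markers of other cell types separated the origins as well. The yolk sac endoderm markers (Ttr, Afp, Apoa4, Amn, Apob, Rbp4) summed to 6645 to 14620 TPM in exMidgut against 1427 to 2938 TPM in emMidgut, and to 115 to 679 TPM in exHindgut against 25.1 to 86.5 TPM in emHindgut. The sum of the 5 mesenchyme markers was lower in extraembryonic cells, at 23.0 to 57.5 against 102 to 182 TPM in the midgut and 8.55 to 32.9 against 36.7 to 72.1 TPM in the hindgut, although by limma only Vim was called, of 4 tested. By limma over both regions 0 of the 6 yolk sac markers were called, with 4 at an unadjusted p under 0.05 and a median difference of 2.52. The part of these markers in the difference of Cdkn2a was not tested.

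The gut levels exceeded those of the yolk sac endoderm, the extraembryonic tissue of the same lineage and stage. YsEndo held 52.7, 62.7, 77.4 and 91.1 TPM of Cdkn2a. The means of exHindgut and exMidgut were 2.78-fold and 6.33-fold higher, and no range overlapped that of YsEndo. Between both gut groups together and YsEndo, the median of all genes was itself higher by 0.59 on the log2 scale. That median shift was 0.04 with quantile normalization and 0.08 with median-ratio rescaling, so the folds hold a part that the typical gene shares. In such bulk samples, fewer cells that express a gene and less RNA per cell cannot be told apart. Among the same libraries the 6 yolk sac endoderm markers had a median sum of 10940 TPM in exMidgut, 303 TPM in exHindgut and 50450 TPM in YsEndo. The part of these markers here was not tested either.

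Cdkn2a was already present in extraembryonic endoderm at E6.5, at lower levels. It was 32.8, 48.7, 22.1 and 39.4 TPM in exEndo 1 and 4.49, 18.1, 13.96 and 34.7 TPM in exEndo 2. In Epi it was 3.36, 0.267, 1.20 and 0.658 TPM. Every extraembryonic value was above every Epi value, with means 26.1-fold (exEndo 1) and 13-fold (exEndo 2) higher. The ranges of exEndo 1 and exEndo 2 overlapped, and their means differed 2.01-fold. Same-numbered libraries of these groups deviate together over genes, and within all 4 such pairs both Cdkn2a and Cdkn2b were higher in exEndo 1. exEndo 1 held more RNA of epiblast markers, a sum of 64.8 to 406 TPM against 18.4 to 47.1 TPM in exEndo 2. The part of these markers was not tested.

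At E13.5 the extraembryonic libraries, all Trp53 KO, had the highest group means of Cdkn2a, with 1 exColon value inside the range of exMidgut at E9.5. It was 451, 655 and 587 TPM in exColon and 885, 1005 and 723 TPM in exSI. In emColon it was 3.90, 7.77 and 0 TPM, and in emSI 10.1, 93.4 and 0.892 TPM. The groups did not overlap in either organ: the lowest exColon value was 58.0 times the highest of emColon, and the lowest exSI value 7.74 times the highest of emSI. On the log2(TPM + 1) scale the differences were 7.32 ± 0.95 and 6.11 ± 1.64, with the larger error in the small intestine beside the wider spread of emSI. Compared with E9.5, exColon was 2.86-fold above exHindgut and exSI 1.94-fold above exMidgut, without overlap. The summed mesenchyme markers again separated the origins, at 10.6 to 59.5 TPM in exColon against 96.5 to 154 TPM in emColon and 4.65 to 53.5 TPM in exSI against 109 to 488 TPM in emSI, with 0 of the 3 that were tested called by limma and 3 at an unadjusted p under 0.05. In the colon the sum was mostly Vim, at 10.6, 42.1 and 59.5 TPM in exColon and 134, 88.05 and 153.6 TPM in emColon. In emSI replicate 3 Vim was 107.1 TPM and Col1a1, Col1a2 and Col3a1 were at 0. In emSI replicates 1 and 2 Col3a1 was 203.2 and 43.9 TPM. The yolk sac endoderm markers summed to 3520 to 5137 TPM in exSI against 1289 to 1514 TPM in emSI, and to 2526 to 6621 TPM in exColon against 1866 to 3822 TPM in emColon, with overlap in the colon. Amn and Afp were called higher in extraembryonic cells by limma. Rbp4 made up most of the sums in embryonic cells too, at 944.5 to 984.2 TPM in emSI and 1126 to 2838 TPM in emColon. In exSI it was 2367 to 3753 TPM, and in exColon 843.7 to 2485 TPM, which overlapped emColon. The part of these marker sets in the difference of Cdkn2a was not tested.

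The emSI library with 93.4 TPM of Cdkn2a, replicate 2, also had 49.1 TPM of Cdkn2b, the highest of any embryonic library. The extraembryonic transcripts mCherry, Rhox5 and Trap1a were at 0 in this library, as they were in all 6 embryonic libraries of E13.5. At E9.5 the embryonic libraries held Cdkn2a at 0.0953% to 1.63% of the mean of exHindgut and 1.88% to 5.51% of that of exMidgut, while mCherry was at most 0.0935% of its extraembryonic mean. Rhox5 was 1.81%, 0.292%, 2.34% and 0% in emMidgut, in the order of replicates, and Trap1a 0%, 0.0530%, 1.70% and 0.0206%. Cdkn2a was 3.87%, 1.88%, 3.08% and 5.51%, so the order of the libraries differed between these transcripts. The emMidgut libraries also held Pou5f1 at a median of 46.8 TPM. Their germ cell markers summed to 3.26 to 227 TPM (median 97.8), which overlapped the 0.852 to 5.37 TPM (median 2.60) of emHindgut. Their neural markers summed to 10.6 to 58.8 TPM, against at most 0.659 TPM in emHindgut and 4.62 TPM in exMidgut. Mesenchyme markers had a median sum of 139.5 TPM against 46.8 TPM in emHindgut. Whether Cdkn2a in emMidgut came from the cells that carry these markers, or from extraembryonic remnants in the dual cells, was not tested.

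**Figure D1:**
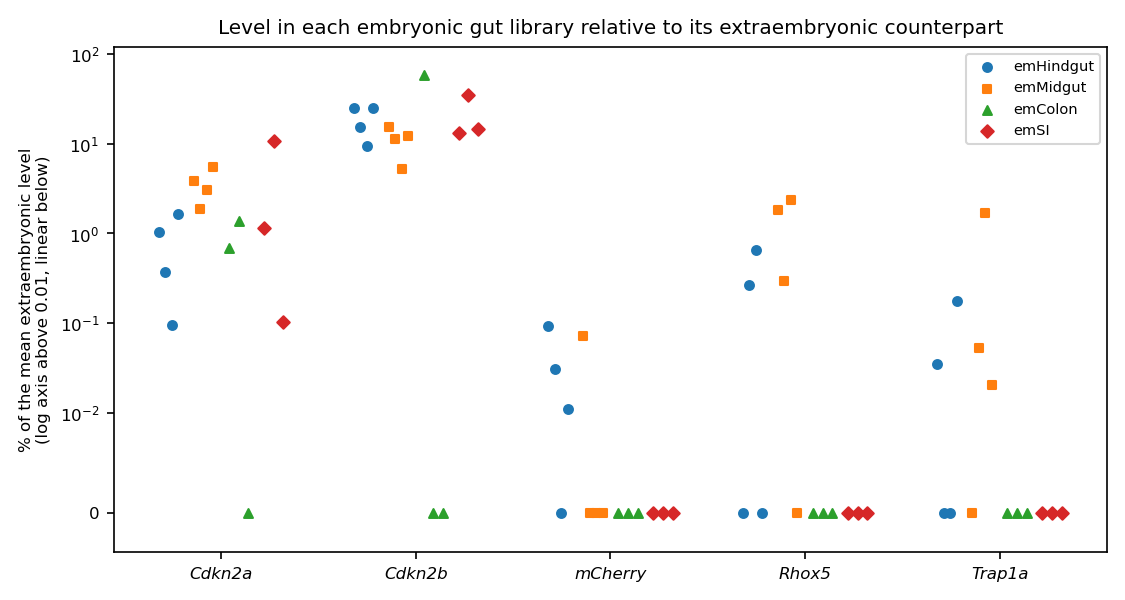
Level of Cdkn2a, Cdkn2b and 3 extraembryonic transcripts in each embryonic gut library, as a percentage of the mean of the extraembryonic group of the same region (vertical axis, logarithmic above 0.01 and linear to 0). Each point is a library. Cdkn2a lay at 0.0953% to 5.51% at E9.5, Cdkn2b at 5.30% to 25.1%, and mCherry at or under 0.0935%.

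Nearly all of the Cdkn2a RNA was of the ARF form wherever it was abundant. The share of ARF was derived from the deposited coverage and FPKM of the gene, whose ratio depends on the length of the transcripts used; the same ratio was constant within 1e-4 in 97.1% to 98.6% of genes with a single transcript. In genes with 2 transcripts, as Cdkn2a has, it lay in the range that their lengths allow, with a small tolerance at each end, in 93.0% to 94.4%. The Cdkn2a transcripts, of 852 and 895 bases, allow only a narrow range, so this check is loose for Cdkn2a. The share assumes that the deposited coverage is averaged over the union of the exons of a gene. In 23 libraries with a coverage over 100 reads per base, ARF made up 92.6% to 98.9% of the transcripts, with a median of 96.7%. The share was 94.6% to 97.9% in exHindgut, 96.7% to 97.4% in exMidgut, 95.7% to 97.7% in exColon, 96.2% to 98.2% in exSI and 93.2% to 96.9% in YsEndo. INK4A was the minor form. Its level was computed as the part of the Cdkn2a TPM not assigned to ARF. With a nearly constant share of ARF, this level rises with Cdkn2a by construction. At E9.5 it was 3.45 ± 1.65 TPM in YsEndo, 8.18 ± 2.93 TPM in exHindgut and 12.5 ± 2.48 TPM in exMidgut (mean ± SD, n = 4). At E13.5 it was 18.3 ± 8.59 TPM in exColon and 20.4 ± 6.07 TPM in exSI (n = 3). In emMidgut INK4A was 0.110 ± 0.0687 TPM, and in emHindgut all 4 libraries, at a coverage of 0.438 to 9.63 reads per base, were assigned wholly to ARF. Of the 43 libraries with any Cdkn2a, 2 were assigned wholly to INK4A, Epi replicate 2 and emSI replicate 3, at a coverage of 0.807 and 3.86 reads per base. Those 2 values rest on 946 and 4526 aligned bases and carry little weight.

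**Figure D2:**
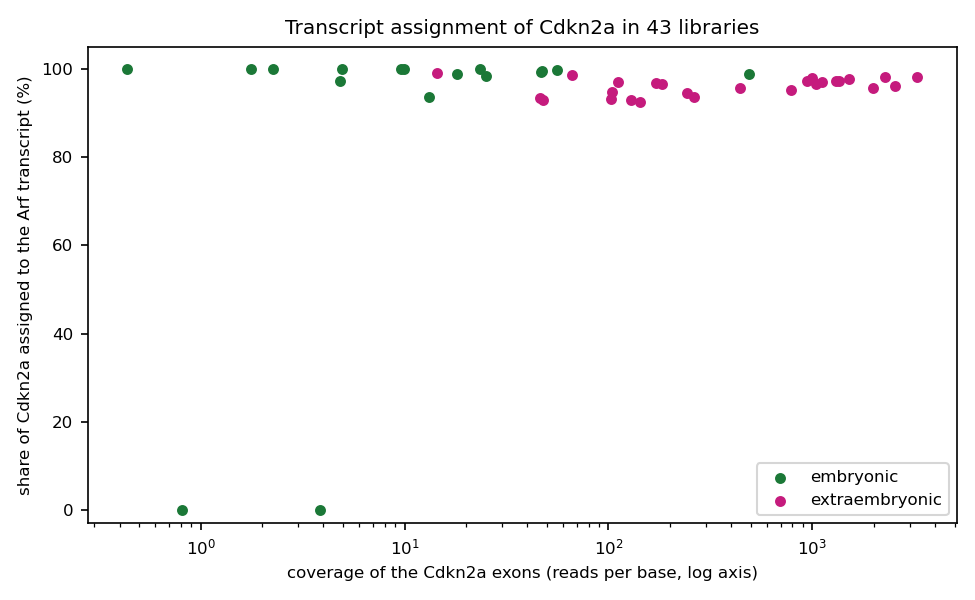
Share of Cdkn2a transcripts assigned to ARF (vertical axis, %) against the coverage of the Cdkn2a exons (horizontal axis, reads per base, logarithmic) in 43 libraries, embryonic in green and extraembryonic in magenta. Libraries over 100 reads per base lie between 92.6% and 98.9%, and the 2 points at 0% have a coverage under 4.

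Cdkn2b, the neighbouring INK4 gene, was higher in extraembryonic gut too, at lower levels and with smaller differences. At E9.5 it was 22.4, 9.67, 32.8 and 17.9 TPM in exHindgut and 5.18, 3.15, 1.94 and 5.20 TPM in emHindgut. In exMidgut it was 57.7, 37.5, 35.3 and 50.9 TPM, against 7.07, 5.14, 2.40 and 5.56 TPM in emMidgut. The means differed 5.35-fold in the hindgut and 8.99-fold in the midgut, and no range overlapped its counterpart. The differences were 2.10 ± 0.43 and 2.98 ± 0.32 on the log2(TPM + 1) scale, less than the 6.44 and 4.80 of Cdkn2a. Unlike Cdkn2a, Cdkn2b was low in YsEndo, at 0.765, 3.68, 2.39 and 2.54 TPM, under every value of exHindgut and exMidgut and overlapping that of emHindgut. At E6.5 it was at most 2.64 TPM in exEndo 1, 0.868 TPM in exEndo 2 and 0.425 TPM in Epi.

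At E13.5 Cdkn2b separated the organs in both origins, and the origins in the small intestine but not in the colon. It was 159, 195 and 72.3 TPM in exSI and 18.9, 49.1 and 20.6 TPM in emSI, a 4.81-fold difference of means without overlap. In exColon it was 8.89, 24.1 and 6.15 TPM, and in emColon 7.57, 0 and 0 TPM, where the ranges overlapped. The small intestine was above the colon without overlap in both origins, 10.9-fold for extraembryonic cells and by 3.77 ± 1.12 on the log2 scale for embryonic cells. For Cdkn2a, exSI was only 1.54-fold above exColon. The ratio of Cdkn2a to Cdkn2b accordingly ran from 5.16 to 10.0 in exSI, 27.2 to 95.5 in exColon, 7.03 to 13.1 in exMidgut, 5.23 to 19.0 in exHindgut and 17.0 to 68.8 in YsEndo, and it was under 1 in all 4 emHindgut libraries. TPM is scaled by transcript length, so the 2 genes can be set side by side.

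Few other genes near the locus were expressed. Of 21 protein-coding genes within 500 kb of Cdkn2a, Cdkn2b apart, 19 were above 1 TPM in no library, most of them in the interferon cluster. Mtap, an enzyme of methionine salvage 93.4 kb away, was above 1 TPM in 44 of 44 libraries, with group means of 43.4 to 82.5 TPM. Its means in exHindgut and emHindgut were 78.5 ± 4.96 and 77.2 ± 11.3 TPM (SD, n = 4), a difference within their spread. In the midgut they were 69.3 ± 10.6 in exMidgut and 52.8 ± 10.5 TPM in emMidgut (n = 4), in the colon 82.5 ± 12.9 in exColon and 53.1 ± 12.1 TPM in emColon (n = 3), and in the small intestine 67.7 ± 11.8 in exSI and 52.2 ± 33.1 TPM in emSI (n = 3), so the mean was above by more than 1 SD in extraembryonic cells of the midgut and colon. Dmrta1, 384.8 kb away, reached 3.51 TPM.

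The remaining INK4 members were near 0 or kept no single direction by origin in the gut. Cdkn2c, which encodes p18, was the least abundant: it exceeded 1 TPM in 2 of 44 libraries, with a highest value of 1.33 TPM in exColon replicate 3, and was listed at 0 in 24. All libraries of exMidgut, emColon and emSI listed it at 0. The highest group mean was 0.841 ± 0.289 TPM in exEndo 2. Cdkn2d, which encodes p19 INK4D and is distinct from ARF, was above 1 TPM in all 44 libraries. At E6.5 it was 43.2 to 44.5 TPM in exEndo 2, 23.1 to 35.9 TPM in exEndo 1 and 15.2 to 18.3 TPM in Epi, 3 ranges that did not overlap. At E9.5 it overlapped between origins in both regions, and YsEndo, at 26.3 to 30.4 TPM, was above both exHindgut and exMidgut without overlap. At E13.5 it went in opposite directions in the 2 organs. It was 27.2, 28.8 and 34.0 TPM in exColon against 1.95, 4.22 and 25.2 TPM in emColon. In exSI it was 5.67, 5.12 and 11.9 TPM against 33.6, 28.1 and 36.6 TPM in emSI. All exColon values were above emColon and all exSI values below emSI, where the mean of emSI was 4.33-fold higher.

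At E9.5 the levels of Cdkn1b and Cdkn3 separated the gut regions, while the origins overlapped. Cdkn1b (p27) ranged from 3.96 to 30.9 TPM over all libraries. At E9.5 it was 14.5 to 23.6 TPM in exMidgut against 3.96 to 9.71 TPM in exHindgut, and 15.2 to 27.3 TPM in emMidgut against 8.58 to 12.4 TPM in emHindgut. The midgut was above the hindgut in both origins without overlap, 2.27-fold and 2.08-fold, whereas the origins overlapped in each region. Cdkn3 had the reverse order. It was 21.4 to 36.1 TPM in exHindgut against 10.9 to 19.7 TPM in exMidgut, and 31.1 to 38.9 TPM in emHindgut against 10.4 to 20.2 TPM in emMidgut, so the hindgut was above the midgut by 1.79-fold and 2.53-fold, again without overlap. At E6.5 Cdkn3 was 31.8 to 35.9 TPM in exEndo 1 and 28.9 to 39.4 TPM in exEndo 2, both above the 18.5 to 22.5 TPM of Epi. At E13.5 the origins overlapped for both genes in both organs.

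**Figure D3:**
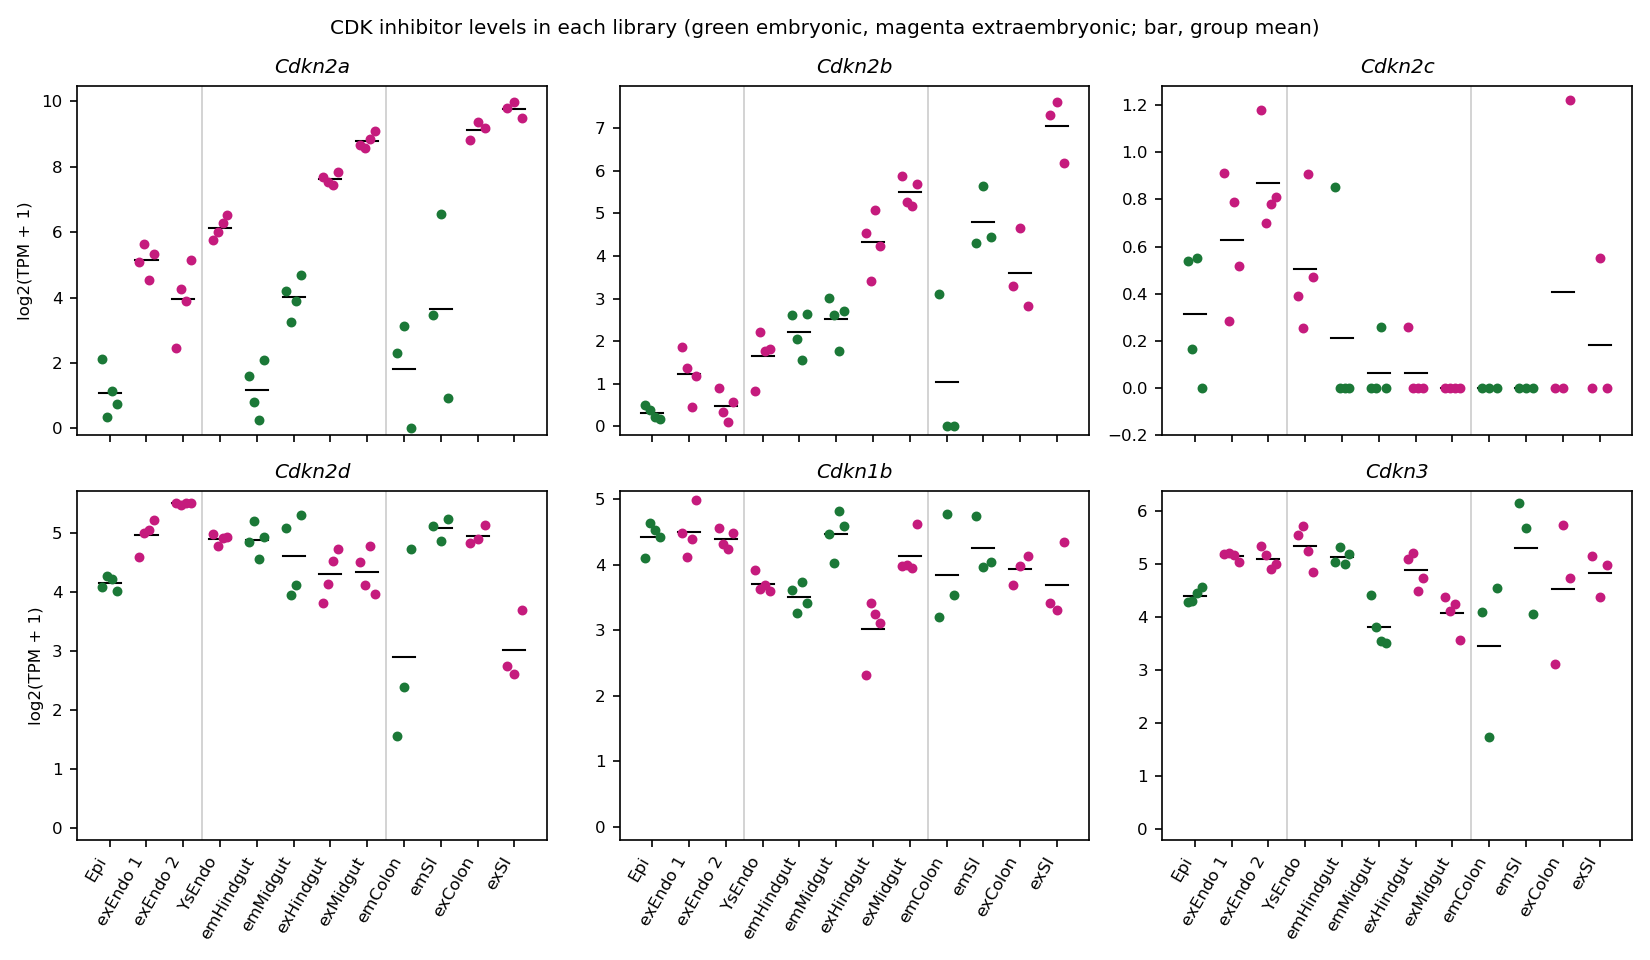
Levels of the 6 members as log2(TPM + 1) (vertical axes) in each of 44 libraries, by group (horizontal axis), with E6.5, E9.5 and E13.5 divided by grey lines, embryonic libraries in green, extraembryonic in magenta and a bar at the mean of the group. Cdkn2a is at 171.5 TPM or more in all extraembryonic gut libraries, and Cdkn2c reaches 1.33 TPM at most.

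**Figure D4:**
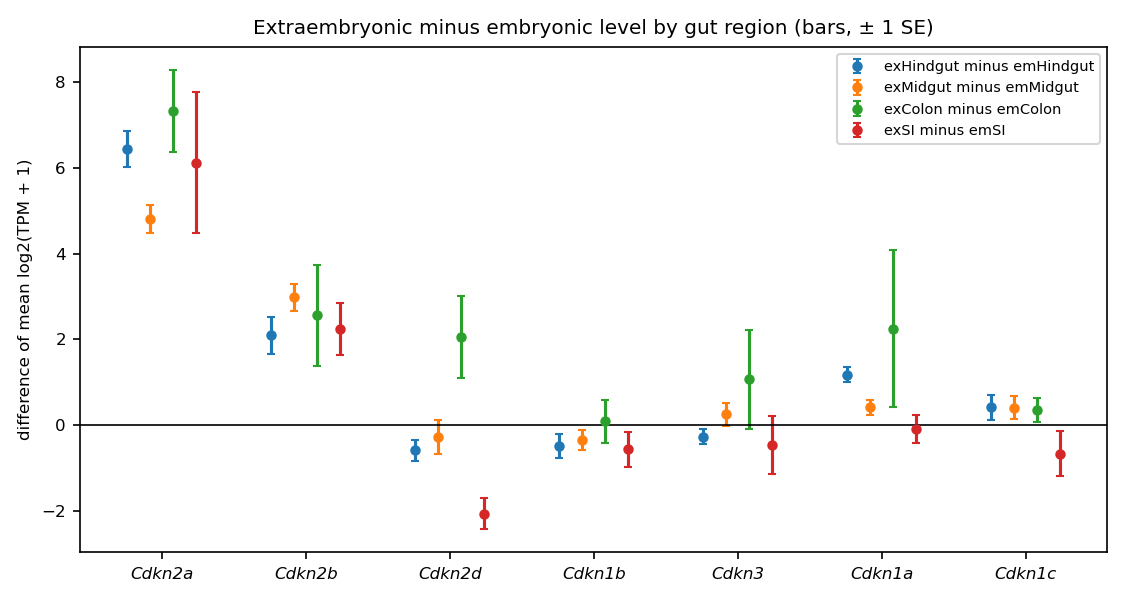
Difference of mean log2(TPM + 1), extraembryonic minus embryonic, for 5 members, Cdkn1a and Cdkn1c (horizontal axis) in 4 gut regions (colours), with bars of 1 SE on each side. Cdkn2a lies between 4.80 and 7.32, Cdkn2b between 2.10 and 2.98, and Cdkn2d has opposite signs in colon and small intestine.

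The order of the group means differed from gene to gene. For Cdkn2a it ran from exSI (871 TPM) through exColon (564), exMidgut (449), exHindgut (197), YsEndo (71.0), exEndo 1 (35.7), emSI (34.8), exEndo 2 (17.8), emMidgut (16.1), emColon (3.89) and emHindgut (1.54) to Epi (1.37). Neighbours in that order did not overlap at exSI and exColon, exMidgut and exHindgut, exHindgut and YsEndo, YsEndo and exEndo 1, and emMidgut and emColon; the other neighbours did. For Cdkn2b, exSI (142 TPM) stood clear of the next group, exMidgut (45.3), and emSI (29.6), exHindgut (20.7), exColon (13.03), emMidgut (5.04), emHindgut (3.86), emColon (2.52), YsEndo (2.34), exEndo 1 (1.47), exEndo 2 (0.423) and Epi (0.255) followed with overlap between neighbours. Cdkn2d was highest in exEndo 2 (44.1 TPM), which stood clear of all the rest in the order, and lowest in exSI (7.56 TPM). For Cdkn1b, from exEndo 1 (22.2 TPM) to exHindgut (7.46 TPM), and for Cdkn3, from emSI (45.4 TPM) to emMidgut (13.6 TPM), all neighbours overlapped. Cdkn2a made up 71.9% of the summed TPM of the 6 genes in exHindgut, 81.9% in exMidgut, 87.0% in exColon and 82.2% in exSI, against 1.90% in emHindgut, 19.1% in emMidgut, 9.80% in emColon and 15.7% in emSI (means over libraries). The share was 45.4% in YsEndo and 2.40% in Epi. In emSI the mean of Cdkn2a and its share rest largely on replicate 2, with 93.4 TPM against 10.1 and 0.892 TPM in the others. The emSI share ran from 1.0% to 39.65%.

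The genes most like each member in pattern were ranked by Pearson's r of log2(TPM + 1) over the 12 group means, among 14673 genes (14674 for Cdkn2c). These values describe 12 points that share libraries and depth. For Cdkn2a they were Il19 (r = 0.931), Slc25a31 (0.924), Phf11d (0.907), Rec8 (0.900) and Gm12569 (0.886). Of these Rec8, a meiotic cohesin, had means of 24.6 TPM in exHindgut and 25.8 TPM in exMidgut against 3.50 and 6.72 TPM in the embryonic counterparts. Cdkn2b was at r = 0.729 to Cdkn2a, rank 99. For Cdkn2b the closest were Arsb (0.914), C330018D20Rik (0.909) and Cd47 (0.902). Those of Cdkn2d were Ufl1 (0.920), St6galnac3 (0.899) and Efcab2 (0.888), those of Cdkn1b Cfap77 (0.844), Capn7 (0.802) and Gstt1 (0.801), and those of Cdkn3 Brip1 (0.881), Cd68 (0.874) and Ccne2 (0.846). For Cdkn2c they were Nipa2 (0.942), Imp4 (0.941) and mt-Nd1 (0.929), from levels near 0. Over the 44 single libraries the r of Efcab2 to Cdkn2d was 0.117 and that of Slc25a31 to Cdkn2a 0.850.

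Genes that act with the inhibitors, which are no members, were then tested. The lists were drawn up with earlier results of these data known, so they are not independent of the data. They are 85 genes in 9 lists, among them CDKs and cyclins, pocket proteins and E2F factors, the p53 axis, Polycomb and other repressors of the Cdkn2a locus, its activators, replication and mitosis genes, and senescence-linked genes. Calls were made by limma on log2(TPM + 1) at an adjusted p below 0.05, with Benjamini-Hochberg adjustment over all genes tested, and a log2 difference over 1 in either direction. Of the members, Cdkn2c was under the filter on low values in every comparison and Cdkn2b in the 2 at E6.5, so 4 members passed it at E6.5 and 5 later.

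Between exGut (exHindgut and exMidgut) and emGut (emHindgut and emMidgut) at E9.5, 1 of 81 pathway genes was called, Cbx7 (1.23%, against 2.3% of all 13458 genes tested). Cbx7, a chromodomain subunit of Polycomb complex PRC1 that is known to repress Cdkn2a, was higher in extraembryonic cells. It was 112, 121, 167 and 146 TPM in exHindgut and 205, 152, 183 and 187 TPM in exMidgut. In emHindgut it was 1.76, 1.58, 2.53 and 3.32 TPM and in emMidgut 5.57, 7.26, 9.98 and 11.8 TPM. The groups did not overlap, and the difference was 4.84 ± 0.31 by limma (adjusted p = 4.13e-09). Regions and origins may come from the same pools of embryos, which the labels do not give; the adjusted p was 2.59e-09 in the hindgut alone, 4.1e-08 in the midgut alone and 5.84e-09 with a replicate block. Among these E9.5 gut libraries Cbx7 thus was higher in the origin in which Cdkn2a was higher, which is no statement about the other groups. None of the 14 CDKs and cyclins, 13 pocket protein and E2F genes, 6 p53 axis genes and 13 replication and mitosis genes was called; their median differences were −0.22, −0.08, 0.11 and −0.47, and 22 of 81 pathway genes had an unadjusted p under 0.05 by limma, against 16.5% of all genes. Of these 22, 8 were replication and mitosis genes. Cdkn1a, the p21 gene and a p53 target, was 490 to 701 TPM in exHindgut against 199 to 312 TPM in emHindgut and 225 to 378 TPM in exMidgut against 181 to 223 TPM in emMidgut (0.80 ± 0.22, limma adjusted p = 0.0451), under the fold required for a call. In the hindgut alone its difference was 1.18 (limma adjusted p = 0.00014) and it was called, with Twist1, which was lower (−1.90). With the region as a covariate Ccne1 was called as well, lower in exGut (−1.04, limma adjusted p = 0.0108).

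At E13.5 Cbx7 was again the 1 pathway gene called, of 79 tested (1.27%, against 0.61% of all 12468 genes). It was 83.9, 53.04 and 72.4 TPM in exColon and 48.0, 58.0 and 94.7 TPM in exSI, against 6.29, 0 and 16.8 TPM in emColon and 8.76, 3.26 and 0 TPM in emSI. The difference was 4.01 ± 0.64 (limma adjusted p = 0.00261), without overlap. The 6 libraries of each origin come from 2 organs, and organs and origins may share embryos, which the labels do not give; the adjusted p was 0.0298 in the small intestine alone and 0.00283 with a replicate block. The call was lost with a pseudocount of 0.1 (adjusted p = 0.0609), without a filter on low values (0.0519) and in the colon alone (0.195), and over all alternatives the limma adjusted p ran from 0.000924 to 0.195. Cdkn1a was 92.4, 83.9 and 119 TPM in exColon, 106, 0.749 and 45.9 TPM in emColon, 236, 217 and 368 TPM in exSI and 236, 376 and 250 TPM in emSI, with overlap in both organs (1.09 ± 0.71, limma adjusted p = 0.616).

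Between exEndo 1 and Epi at E6.5, 26 of 78 pathway genes were called, 11 higher and 15 lower, a share of 33.3% beside 33.4% of all 12048 genes, with limma adjusted p of 1.1e-07 to 0.018. Of the D-type cyclins, Ccnd1 fell by 4.26 on the log2 scale, from a median of 146 to 8.04 TPM, and Ccnd2 by 2.56, while Ccnd3 differed by 0.17 ± 0.32 (limma adjusted p = 0.664). Ccne1 fell by 1.55 and Ccne2 rose by 1.02, a call that held in 9 of 16 alternatives and was lost with FPKM, quantile normalization and median-ratio rescaling and without Epi replicate 1, 2 or 3 or exEndo 1 replicate 1. Of the other inhibitors, Cdkn1c (p57) was higher by 2.89 ± 0.44 (limma adjusted p = 0.000145), with Cdkn1a at 0.70 (adjusted p = 0.0387). In the list of Polycomb and other repressors of the locus 5 of 15 genes were higher and 3 lower. Tbx3 (4.92), Id1 (2.85), Bmi1 (2.12), Cbx7 (1.94) and Cbx8 (1.56) were the higher ones, and Cbx2, Jarid2 and Kdm2b the lower ones. Of 13 replication and mitosis genes 6 were lower, Mcm2, Mcm3, Mcm4, Mcm5, Mcm6 and Pcna, by 1.09 to 1.62, and none was higher. Of all genes 13.6% were lower. The Pcna call held in 14 of 16 alternatives and was lost without Epi replicate 4 or exEndo 1 replicate 4. Trp53 was lower by 1.54 and the ARF-binding ligase Trip12 higher by 1.58. Between exEndo 1 and exEndo 2, 3 of 78 pathway genes were called (3.85%, against 6.41% of 11406): Cbx2 was higher in exEndo 1, and Ets2 and Glb1 were lower, the Glb1 call holding in 10 of 16 alternatives. With the replicate block, which the pairing of these libraries calls for, 6 were called, with Cdk6, Igfbp3 and Ccnd1 added, while the count over all genes went from 731 to 770 of 11406.

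Between exGut and YsEndo, 29 of 81 pathway genes were called, 26 higher and 3 lower, a share of 35.8% beside 42.4% of 12788 genes. With quantile normalization 14 were higher and 9 lower, and with median-ratio rescaling 12 and 9. YsEndo libraries had 11295 to 11436 genes above 1 TPM and exGut libraries 13222 to 13487. In this contrast the median of all genes was itself higher by 0.59, and 76.3% of all calls were higher, which became 49.7% with quantile normalization and 54.8% with median-ratio rescaling. Well above that shift, and called in all 20 alternatives, were Ccnd1 (6.5), Ccnd2 (5.95), Cbx2 (3.26), Cdkn1a (3.22, limma adjusted p = 4.48e-07) and E2f5 (3.15). Igfbp3 (2.61), Foxo3 (2.18), Tfdp2 (2.16), Trp53 (1.91) and Jarid2 (1.89) were higher in all 20 as well, whereas Cdk6 (2.20) was not called with quantile normalization (limma adjusted p = 0.0983), and Ccne1 (−1.78) and E2f8 (−1.60) were lower. Ccnd1 and Ccnd2 had medians of 173 and 100 TPM in exGut, where Cdkn2a and Cdkn2b RNA was high too, and of 0.595 and 0.615 TPM in YsEndo. The third D-type cyclin, Ccnd3, differed by −0.27 ± 0.18 (limma adjusted p = 0.2).

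Across stages the pathway calls were mostly lower at E13.5. The E13.5 gut libraries also had fewer genes above 1 TPM, 10383 to 12441 against 13222 to 13596 in the gut at E9.5, without overlap, and the part of this in the calls was not tested. In embryonic cells 12 of 82 genes were called, 1 higher and 11 lower (14.6%, against 19.7% of 13515 genes), and in extraembryonic cells 15 of 81, 3 higher and 12 lower (18.5%, against 14.8% of 13446 genes). The median of all genes fell by 0.46 and 0.28 in these contrasts, and the share of higher calls, 14.9% and 23.6%, became 51.9% and 51% with quantile normalization and 31.7% and 35.3% with median-ratio rescaling. Ccnd1, Tbx3, Id1, Jarid2 and Igfbp3 were lower in both origins, but the extraembryonic call of Ccnd1 held in only 9 of 22 alternatives and was lost with FPKM, median-ratio rescaling, no filter and no trend, and that of Jarid2 in 17 of 22. The embryonic calls of Tbx3 and Jarid2 were lost with quantile normalization and that of Id1 without the filter (limma adjusted p = 0.0518). The embryonic call of Ccnd1 held in 18 of 22 alternatives. It was lost with FPKM, quantile normalization and median-ratio rescaling and without emColon replicate 3. With quantile normalization 2 pathway genes were higher and 2 lower in embryonic cells, against 4 and 10 in extraembryonic ones. In extraembryonic cells Cdkn1a fell by 1.30 and Cdkn1c by 1.45, each through 1 region: the difference of Cdkn1a was −2.55 ± 0.18 (SE) from exHindgut to exColon and −0.04 ± 0.29 from exMidgut to exSI, and that of Cdkn1c was −0.07 ± 0.22 and −2.83 ± 0.44. The embryonic groups differed in the same regions, by −3.62 ± 1.82 for Cdkn1a from emHindgut to emColon and by −1.76 ± 0.39 for Cdkn1c from emMidgut to emSI, each without overlap. Cbx7 fell by 1.22 and Trp53 by 1.12, the latter not past the call rule with FPKM or median-ratio rescaling, or without exColon replicate 1 or exSI replicate 1. The difference of Cdkn2a was 1.23 in extraembryonic and 0.14 in embryonic cells. In extraembryonic cells stage and Trp53 genotype cannot be told apart here. Nor can stage and pooling in either origin, or stage and sort gate in embryonic cells.

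**Figure D5:**
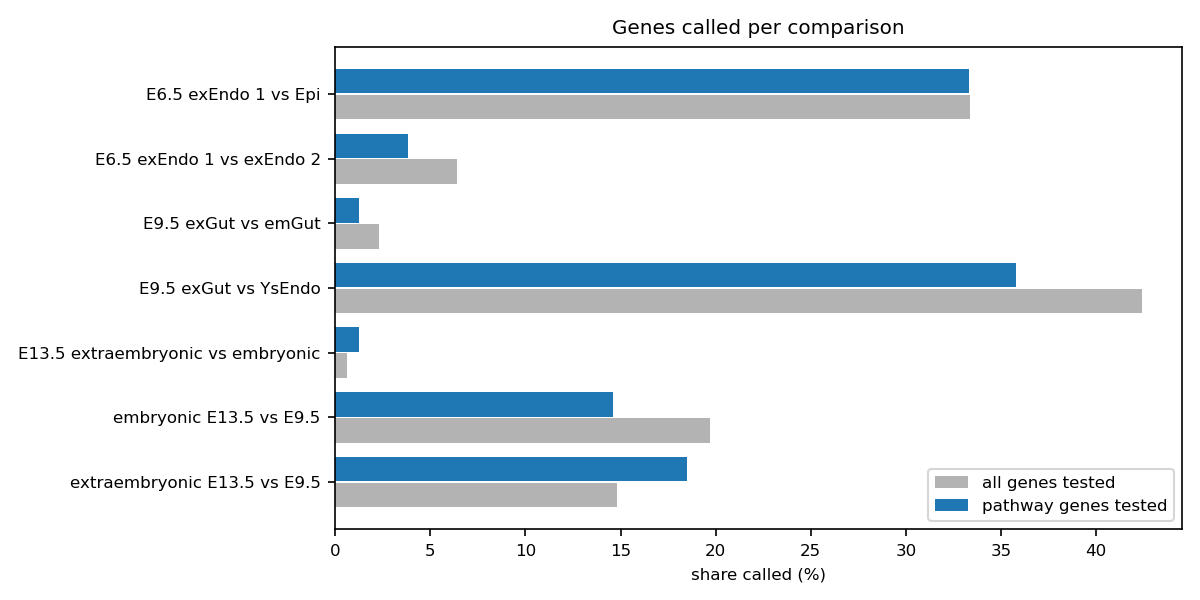
Share of genes called by limma (horizontal axis, %) among pathway genes (blue) and among all genes tested (grey) in 7 comparisons. The shares are 1.23% and 2.3% between exGut and emGut and 33.3% and 33.4% between exEndo 1 and Epi.

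Terms that ask whether the difference by origin itself differs gave few calls, with no requirement on the fold. By limma, 0 of 82 pathway genes were called for stage (E13.5 against E9.5; 7 at an unadjusted p under 0.05), 0 of 81 for region at E9.5 (8) and 0 of 79 for organ at E13.5 (5). Among all genes 0.2%, 0.0966% and 0.016% were called and 9.78%, 7.79% and 8.28% had an unadjusted p under 0.05. For Cdkn2a the difference by origin was larger at E13.5 than at E9.5 by 1.09 and larger in the hindgut than in the midgut by 1.65, given as a description. The E13.5 differences behind the first value had an SE of 0.95 in the colon and 1.64 in the small intestine. Embryonic Cdkn2a at that stage ran from 0 to 7.77 TPM in emColon and from 0.892 to 93.4 TPM in emSI.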

How the data were processed

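Poly(A) RNA was sequenced from 44 low-input mouse libraries made as part of a protocol for joint RNA and methylation profiling. By the methods and the submitters' processing notes, the authors used cutadapt 4.1 for trimming, STAR 2.7.9a for alignment to mm10 and StringTie 2.0.6 for estimates over GENCODE VM23 genes. The values the authors deposited are TPM and FPKM, both scaled by transcript length and library, and coverage, the mean read depth over the exons of a gene; without counts, precision is judged here by the spread of libraries and the aligned bases.

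The members, the gene lists and the comparisons were chosen with earlier results of these data known. Protein-coding genes off the Y chromosome, with TPM over 1 in 4 or more libraries (3 where a group had 3), were compared on log2(TPM + 1) with limma 3.58.1 (lmFit, eBayes with trend, two-sided, Benjamini-Hochberg) in R 4.3.3, on TPM rather than on counts as in the study. The fits between origins at E13.5 and between stages held the organ or region as a covariate, while the main fit between exGut and emGut did not. Folds are ratios of mean TPM, and differences on the log2(TPM + 1) scale understate changes of low genes. The fit was tested on simulated data. Named are the members, Cdkn1a, Cdkn1c, Trp53 and the reporters, up to 3 called genes of each pathway list in each direction, the genes most like each member, and the neighbours of Cdkn2a. Cbx8, Mcm4, Mcm6, Pcna and other genes outside this rule were named after their values were seen.

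The ARF share came from the ratio of coverage to FPKM relative to that of genes with 1 transcript, with exon lengths from GENCODE vM21; in 20 of 20 libraries under a coverage of 100 the exon total was a whole number of bases (within 0.1). Replicate numbers are shared by the groups. Same-numbered libraries of exEndo 1 and exEndo 2 deviated together (lowest r 0.147 over genes), which pairs them by the requirement that every r be over 0.1; no other pair of groups met it (emSI with exSI came nearest, at 0.049). Remaining steps ran in Python 3.11.15 (numpy 2.4.6, pandas 2.3.3). Tried as alternatives were a pseudocount of 0.1, no filter, FPKM, quantile normalization, median-ratio rescaling, no trend, all gene types, a replicate block, a region covariate and leaving out libraries, and, added after seeing the data, single regions and organs.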

Additional observations from a re-analysis of the deposited data

Results flagged for a closer look

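Single libraries stood apart from the other 3 of their group in 5 of 63 groups of 4 examined, and such a gap arises by chance in about 5% of groups. Cdkn2c was 0.8059 TPM in emHindgut replicate 1, 0.1962 TPM in emMidgut replicate 3 and 0.1959 TPM in exHindgut replicate 1, where the other 3 libraries of each group listed it at 0. At these levels a gap rests on few reads. With the others at 0, any value above 0 is flagged, so the rate by chance does not cover these groups. Cdkn1b was 23.64 TPM in exMidgut replicate 4 against 14.48 to 15.03 TPM in the others. Cdkn1a was 19.24 TPM in exEndo 2 replicate 2 against 8.232 to 9.94 TPM in the others.

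Cdkn2d had differences by origin of opposite sign in the 2 organs at E13.5. It was higher by 2.06 in exColon than in emColon and lower by 2.06 in exSI than in emSI on the log2(TPM + 1) scale, with every library following its group. The difference between these differences was not tested, because Cdkn2d was chosen with these values known. Of the emColon libraries, replicate 3 had 25.23 TPM of Cdkn2d and the others 1.949 and 4.215 TPM.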

How the results depend on the processing

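Precision is limited by 3 or 4 libraries per group, by the lack of counts and, for Cdkn2c and for Cdkn2a and Cdkn2b in embryonic libraries, by levels near 0, where the pseudocount sets the size of a difference. By the methods, the E9.5 and E13.5 libraries came from small numbers of sorted cells and the E6.5 libraries from whole dissected tissues. In so few cells a listed 0 and a missed transcript cannot be told apart. Cdkn2a kept its sign in all alternatives except in embryonic cells between E13.5 and E9.5, where its difference of 0.14 became −0.13 with a pseudocount of 0.1, and, leaving out 1 library (range −0.44 to 0.80), −0.03 (emColon replicate 1), −0.21 (emColon replicate 2), −0.44 (emSI replicate 2) or −0.04 (emHindgut replicate 3). With a pseudocount of 0.1 its difference between exEndo 1 and Epi was 5.03 (4.06 with 1) and its difference of differences by region at E9.5 was 2.54 (1.65 with 1).

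Between exEndo 1 and exEndo 2 the replicate block, fitted with a correlation of 0.178 because these libraries pair, gave 6 pathway calls instead of 3. Leaving out exEndo 1 replicate 3 did so too, and in both Cdk6, Igfbp3 and Ccnd1 were added. The Glb1 call was lost without exEndo 1 replicate 1 or 2 and without exEndo 2 replicate 2, 3 or 4. That of Ets2 was lost without exEndo 1 replicate 1. In no other comparison did the block move a count of calls by over 1.5 times. Between exGut and emGut a region covariate gave 582 called genes instead of 310 and 2 pathway calls instead of 1, and hindgut libraries alone gave 3. At E13.5 the single pathway call became 0 with a pseudocount of 0.1, 0 without the filter and 0 in colon alone, and 76 called genes became 50 without the filter and 28 in colon alone. Between stages in embryonic cells 12 pathway calls became 7 with FPKM, 4 with quantile normalization and 7 with median-ratio rescaling, and 2663 called genes became 1576 with quantile normalization. Of the terms for a difference of differences, stage gave 29 called genes (6 to 15 leaving out a replicate number), region 13 (0 with a pseudocount of 0.1, 8 without the filter, 8 without trend, 1 to 5 leaving out a number) and organ 2 (12 without the filter, 4 without trend, 0 to 1 leaving out a number). Apart from the fewer libraries or genes that some of these settings leave, the cause was not tested.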
